A study of Bubalus bubalis with 12 samples.

Results

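The genes described here were 9 regulators of transcription or mRNA decay that belong to, or control, the immediate early response, and ATF3, a stress-induced transcription factor. They were FOS, FOSL1, JUN, JUNB, EGR1, NR4A1, SRF, ZFP36, BTG1 and ATF3. Every probe set whose annotated symbol was exactly one of these 10 genes was taken, which gave 16 of the 24016 probe sets tested and 10 of the 9155 genes with a symbol of their own. FOS and EGR1 had 2 probe sets each, JUN had 5, and the other 7 genes had 1 each. Where a gene had several, they are numbered from the highest to the lowest mean over the arrays (FOS 1, FOS 2, JUN 1 to JUN 5, EGR1 1 and EGR1 2). No probe set was left out for a low signal.

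Expression was measured in the whole corpus luteum (CL), the progesterone-secreting gland of the ovary, of cyclic buffalo cows, all at day 11 of their cycle. The treated animals were injected intramuscularly with 500 µg of cloprostenol, an analogue of prostaglandin F2α (PGF2α), the hormone that ends the life of the CL. The CL was taken from 4 untreated control animals (0 h), from 2 animals at 3 h (labelled replicates 1 and 3), and from 3 animals each at 6 h and 18 h. No strain or age of the animals is given in the labels, and each animal gave 1 GeneChip Bovine Genome Array, 12 in all. The question was how early and how long these genes changed after PGF2α, and how alike the pair of animals at 3 h were.

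Immediate early genes are transcribed within minutes of a stimulus from factors already present in the cell, and most of their transcripts are short-lived. Fos and Jun proteins pair to form the AP-1 factor, while ATF3 binds related sites and is induced by many stresses. SRF, through the serum response element, drives FOS, EGR1 and other early genes, and ZFP36 ends the response by binding AU-rich elements of mRNAs and recruiting the machinery that shortens their tails. In the CL, PGF2α acts on luteal cells through a receptor coupled to calcium and protein kinase C, a known route to these genes.

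All values are log2 values made by the authors with robust multichip average (RMA), so a difference of 1 is a doubling. The probes were designed on cattle sequence and hybridised with buffalo RNA, so levels of different probe sets are not set against each other. The summed marker levels below are an exception in part. They add the unlogged values of the genes of a list and are given as log2. The brightest genes of a list thus weigh most, and each sum is compared only between arrays. The array medians lay between 7.09 and 7.17. The luteal steroidogenic genes STAR and CYP11A1, which mark the labelled tissue, had control means of 14.8 and 14.28. In whole tissue, fewer cells of a type and less RNA per cell cannot be told apart. Differences were tested with limma over all 12 arrays and were called at a Benjamini-Hochberg adjusted p under 0.05 over all 24016 probe sets.

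Unlike control arrays bear on many of the results and are described first. Control replicate 3 stood apart from the other 3 controls. Its FOS 1 value was 1.65 lower on the log2 scale than their mean (10.49 against 12.14), NR4A1 was 1.11 lower (10.37 against 11.48) and EGR1 1 was 1 lower (11.47 against 12.47), whereas ATF3 was 2.76 higher (9.35 against 6.58). Its summed macrophage and monocyte marker level (9 genes measured) was 13.62, where the other controls lay between 11.62 and 11.86 and the 18 h arrays between 12.96 and 13.97. All 4 controls are used below. Without this array 1 call changed among the differences from 0 h, that of JUN 3 at 6 h, which was gained (log2 0.93, adjusted p = 0.0457). The other peculiarity was a close likeness of control replicates 1 and 4 (r = 0.997, with a gap of over 2-fold in 6 probe sets, and in 220 to 1306 for every other within-time pair). The labels count both as animals, and results with both averaged as 1 control are given where calls changed.

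**Figure D1:**
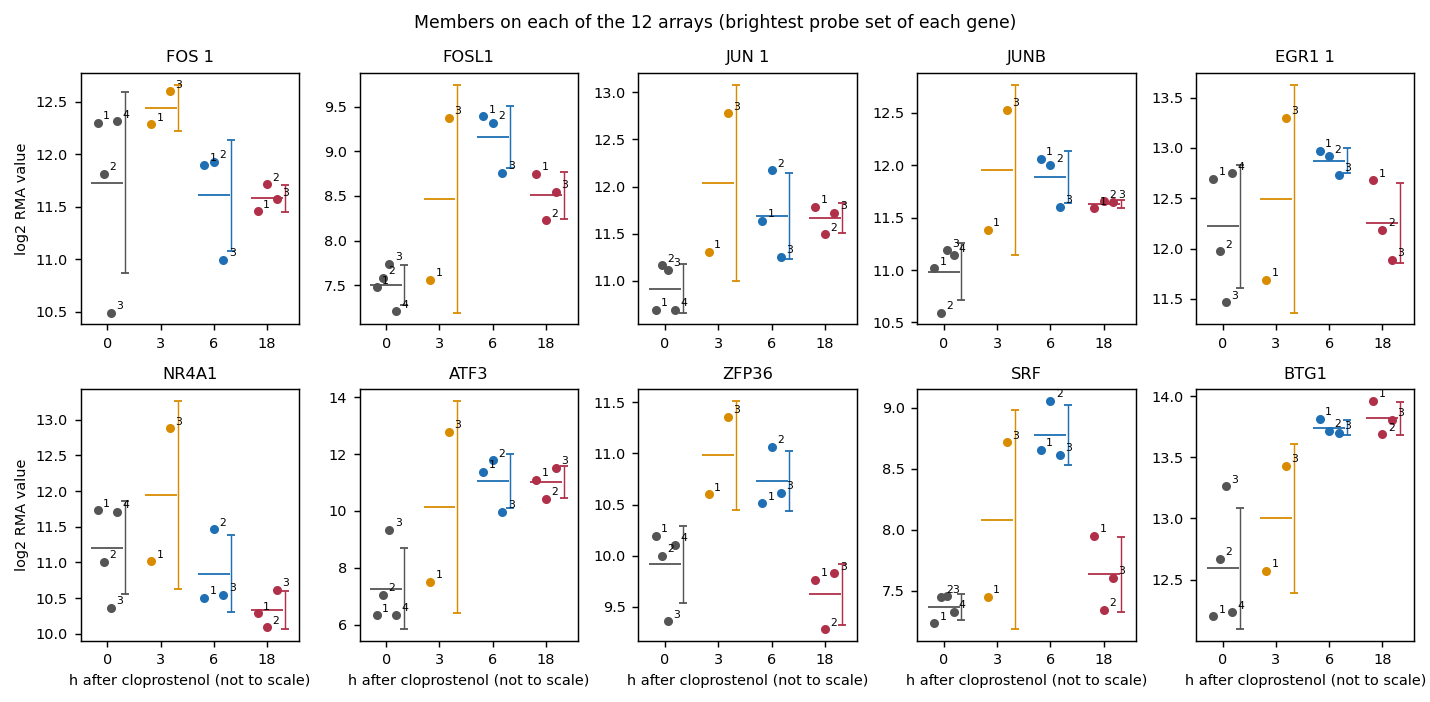
Log2 RMA value (vertical axes, each with its own range) of the brightest probe set of each gene at 0, 3, 6 and 18 h after cloprostenol (horizontal axes, not to scale). Each point is 1 array with its replicate number, horizontal lines are means and error bars are SD (n = 4, 2, 3 and 3). ATF3 stood at 12.78 in 3 h replicate 3 and at 7.52 in replicate 1. The 3 arrays at 6 h and at 18 h lay above all controls for FOSL1, JUN 1, JUNB, ATF3 and BTG1.

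At 3 h the 2 animals differed widely. In replicate 3 most of the genes stood above every control, with ATF3, JUN 4, NR4A1 and FOSL1 the furthest above replicate 1. In replicate 1 ATF3, FOSL1, SRF, NR4A1, EGR1 and BTG1 lay within the control range, while ZFP36, JUNB, FOS 2 and 3 probe sets of JUN lay above it. Neither array had a member probe set below the control range.

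Taken singly, 3 h replicate 3 lay above all 4 controls in 14 of 16 member probe sets, where 23.0% of all probe sets did so. The exceptions were JUN 5 and EGR1 2. Replicate 1 lay above all controls in 6 of 16, against 22.4% of all probe sets, and within their range in the other 10. Replicate 3 was the highest of the 12 arrays in 10 of 16 member probe sets, against 10.9% of all probe sets.

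ATF3 measured 12.78 in 3 h replicate 3 and 7.52 in replicate 1, a gap of 5.26 log2 units or 38.3-fold. The controls measured 6.34, 7.05, 9.35 and 6.35, so replicate 1 lay within them and replicate 3 above every other array of the study. JUN 4 measured 9.37 against 6.66, a gap of 2.70. NR4A1, an orphan nuclear receptor, measured 12.88 in replicate 3 and 11.02 in replicate 1, and FOSL1, a Fos family member, measured 9.37 and 7.56. The replicate 1 values of both lay inside the ranges of the controls.

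The gap between the 2 arrays exceeded 1 log2 unit in 9 of 16 member probe sets, all higher in replicate 3, where 3.23% of all probe sets were that much higher and 2.21% that much lower. The gaps of EGR1 1, JUN 1, JUN 2, SRF and JUNB were 1.60, 1.47, 1.35, 1.27 and 1.15. FOS differed less between the 2 arrays, since FOS 1 measured 12.28 in replicate 1 and 12.60 in replicate 3, and FOS 2 measured 10 and 9.88. Both FOS 2 values lay above the highest control (9.74), and the FOS 1 value of replicate 1 lay within the controls. The 2 arrays also differed in the summed level of 4 neutrophil markers (11.6 in replicate 1 and 14.35 in replicate 3, against 12.88 to 13.17 in the controls). The control means of these 4 ran from 5.65 (MPO) to 12.58 (S100A8), so the dim ones added little to the sum. The summed level of 10 smooth muscle and mural markers differed as well (13.32 and 14.62, against 13.79 to 14.62). The part of these marker differences in the gaps was not tested.

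**Figure D2:**
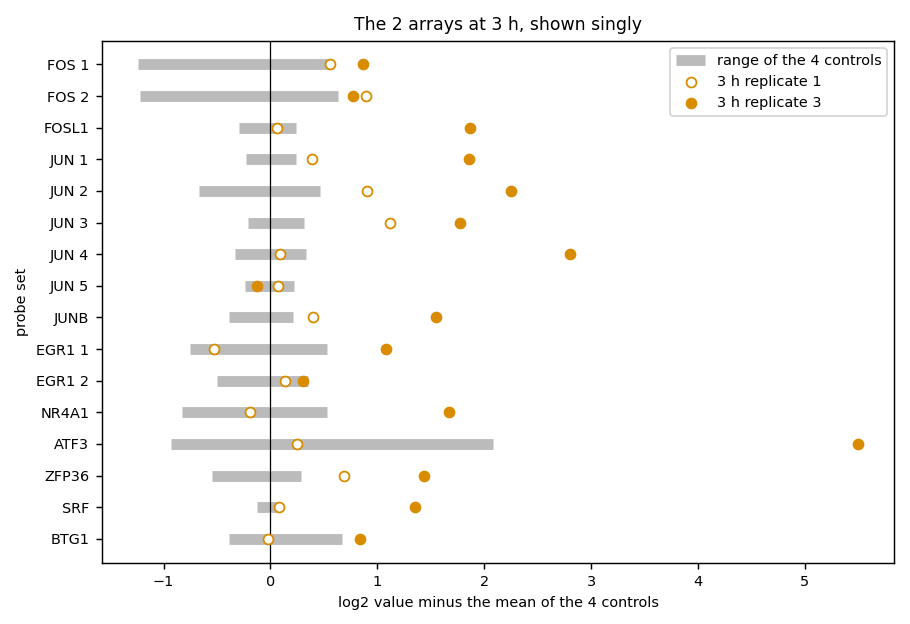
Each member probe set (vertical axis) on the 2 arrays at 3 h, as the log2 value minus the mean of the 4 controls (horizontal axis). Open circles are replicate 1, filled circles replicate 3 and grey bars the range of the controls. Filled circles lie to the right of the bar in 14 of 16 probe sets and open circles in 6 of 16.

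Over both arrays no member was called at 3 h against 0 h by limma. In the group means 15 of 16 probe sets were higher than at 0 h, with a median log2 difference of 0.90, where the median over all probe sets was -0.01. None of 16 was called in either direction, against 0.00416% of all probe sets called higher (1 probe set) and 0.0167% called lower (4 probe sets). At an unadjusted p under 0.05 there were 9 of 16, against 9.89% of all probe sets.

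The lowest adjusted p was that of JUN 3 (log2 1.45 ± 0.30 SE, adjusted p = 0.182, limma, n = 2 and 4). Its values were 7.67 and 8.32 at 3 h against 6.33, 6.65, 6.85 and 6.34 at 0 h, so the groups did not overlap. ZFP36 followed (log2 1.07 ± 0.28, adjusted p = 0.252), with 10.60 and 11.36 against 10.20, 10, 9.36 and 10.11. JUNB, an AP-1 component, measured 11.38 and 12.53 against 11.02, 10.59, 11.19 and 11.14 (log2 0.97 ± 0.27, adjusted p = 0.293). These 3 were higher in both animals than in any control, but not beyond the error of the fit once adjusted.

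Which of the 2 animals was kept set the size of many 3 h differences. Without 3 h replicate 1 the log2 differences of FOSL1, JUN 1, JUN 3 and JUN 4 from 0 h were 1.87, 1.86, 1.77 and 2.8. Those of JUNB, ATF3, ZFP36 and SRF were 1.55, 5.5, 1.44 and 1.35. Without replicate 3 these 8 differences were, in the same order, 0.06, 0.39, 1.12, 0.09, 0.4, 0.25, 0.69 and 0.08. The differences of EGR1 1, NR4A1 and BTG1 then turned to -0.53, -0.19 and -0.02. FOS 2 and JUN 5 went the other way, at 0.77 and -0.13 without replicate 1 and at 0.89 and 0.07 without replicate 3. In both of these fits the single 3 h array was assumed to vary like the other groups.

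At 6 h FOSL1, JUNB, ATF3, SRF and BTG1 were up regulated. ATF3 had the largest difference of the 16, 13.6-fold, and FOSL1 followed with 3.15-fold. The arrays of the 3 animals lay above all controls in 8 of 16 probe sets. FOS was not called in either of its probe sets, and NR4A1 and EGR1 were not called either.

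Of 16 member probe sets 5 were called higher at 6 h, against 5.26% of all probe sets, and 0 lower, against 6.08%. The groups did not overlap, with 6 h higher, in 8 of 16, against 11.1% of all. The median log2 difference of the 16 was 0.82 and that of all probe sets -0.04. Of 9 endothelial markers 4 were called higher at 6 h, among them PECAM1 (3.12-fold), and 1 lower, EMCN (3.06-fold), with a summed level of 13.08 to 13.32 against 12.81 to 13.17 at 0 h. At the same time 3 of 10 smooth muscle and mural markers were called higher, and 1 of 10 luteal and 1 of 9 lymphocyte markers lower. The summed luteal steroidogenic level was 16.91 to 17.24 at 6 h, below the 17.33 to 17.52 at 0 h. The summed lymphocyte level was 10.12 to 10.41 against 10.46 to 10.78 at 0 h. The part of these in the 6 h values was not tested.

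SRF measured 8.65, 9.06 and 8.61 at 6 h and 7.24, 7.45, 7.45 and 7.33 at 0 h. All 3 treated arrays stood more than 1 log2 unit above every control (log2 1.41 ± 0.25, 2.65-fold, adjusted p = 0.00674, n = 3 and 4). This call was kept under all 20 alternatives tried.

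FOSL1 measured 9.39, 9.32 and 8.76 at 6 h and 7.48, 7.58, 7.74 and 7.21 at 0 h, again without overlap (log2 1.66 ± 0.34, adjusted p = 0.0117). Without 6 h replicate 1 or 2 its adjusted p was 0.0515 and 0.0524. BTG1, an antiproliferative cofactor of mRNA deadenylation, measured 13.82, 13.72 and 13.70 against 12.20, 12.67, 13.26 and 12.23. Its 6 h arrays differed by little, the highest control was replicate 3, and the rise was 2.23-fold (log2 1.15 ± 0.25, adjusted p = 0.0158). Without 6 h replicate 1 or 2 the adjusted p of BTG1 was 0.0589 and 0.0545.

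ATF3 measured 11.37, 11.78 and 9.97 at 6 h. The lowest of these, replicate 3, lay above the highest control, also a replicate 3 (9.35), and more than 2 log2 units above the other controls (log2 3.77 ± 1.07, adjusted p = 0.0437). The wide spread of ATF3 at 0 h and 3 h enters this error. The call was lost in 9 of the 12 fits that left out 1 array. These were the fits without control replicate 1, 2 or 4 or without any one of the 6 h or 18 h arrays, with the adjusted p between 0.0577 and 0.154 and the difference between 3.40 and 4.31. It was also lost with trend and robust moderation of the spread (adjusted p = 0.0661). Without control replicate 3 the difference was 4.46 (adjusted p = 0.0162).

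JUNB measured 12.06, 12 and 11.60 at 6 h against 10.59 to 11.19 in the controls, with no overlap (log2 0.90 ± 0.24, adjusted p = 0.032). The call of JUNB was lost without control replicate 1, 2 or 4 (adjusted p = 0.0741, 0.0776 and 0.0617) and without 6 h replicate 1 or 2 (0.119 and 0.115). With control replicates 1 and 4 averaged JUNB stood at an adjusted p of 0.0671 and ATF3 at 0.117, while SRF, FOSL1 and BTG1 were called.

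**Figure D3:**
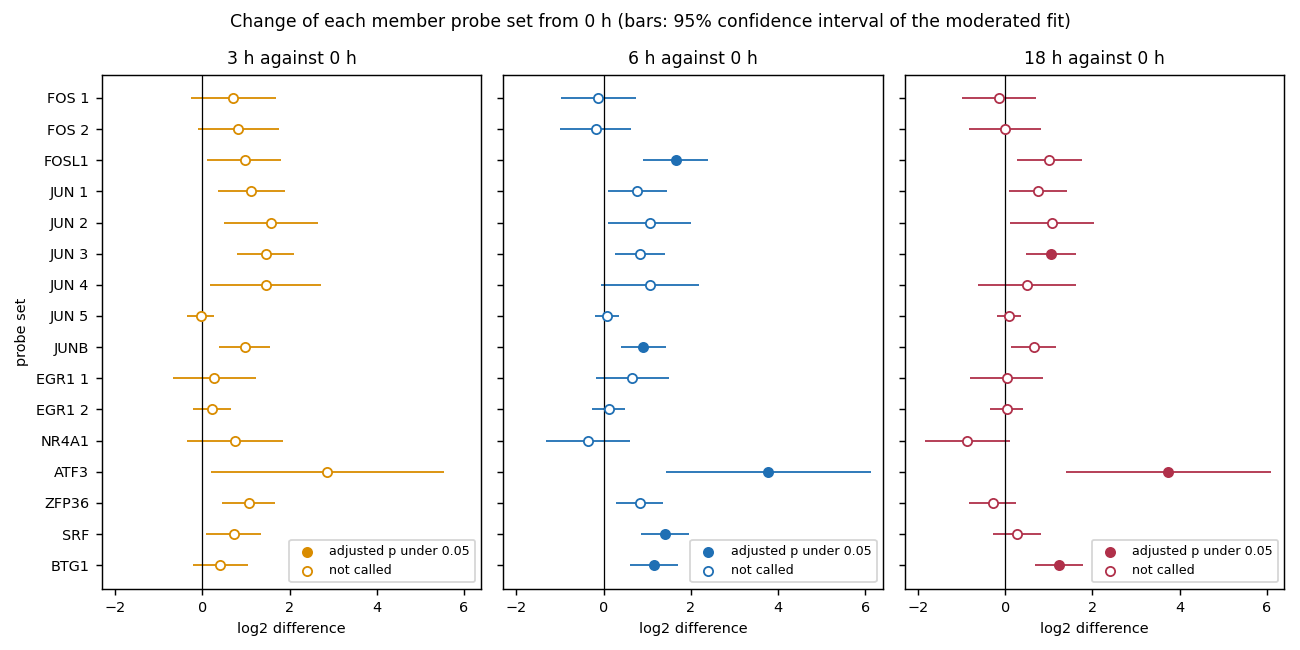
Log2 difference from 0 h (horizontal axes) of each member probe set (vertical axis) at 3, 6 and 18 h, with the 95% confidence interval of the moderated limma fit as a bar. Filled circles have an adjusted p under 0.05. None is filled at 3 h, 5 are at 6 h (FOSL1, JUNB, ATF3, SRF and BTG1) and 3 at 18 h (JUN 3, ATF3 and BTG1).

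The members not called at 6 h fell into 2 kinds. ZFP36 and JUN had higher means, with ZFP36 at 10.51, 11.06 and 10.62, each above every control (log2 0.82 ± 0.24, adjusted p = 0.0527). ZFP36 was called under 5 of the 20 alternatives, namely with the dimmest probe sets left out (0.0406), only the 2 times compared (0.0443), 1 probe set per gene (0.0464) and either 3 h array left out (0.0312 each). The probe sets JUN 1 to JUN 4 had differences between 0.77 and 1.05, with adjusted p-values between 0.0645 and 0.23. Of these JUN 3 (0.0645) was called with the dimmest probe sets left out (0.049), without control replicate 3 (0.0457), without either 3 h array (0.0476 each) and without 6 h replicate 3 (0.0128). JUN 1 and JUN 4 were called without either 3 h array (0.0299 and 0.0329), and JUN 2 without 6 h replicate 3 (0.0348). In all 4 the array of 6 h replicate 3 was the lowest of the 3, for example 7.91 in JUN 2, where replicates 1 and 2 stood at 9.19 and 9.80.

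The other kind showed no common direction. FOS 1 measured 11.90, 11.92 and 11.00 at 6 h against 12.30, 11.81, 10.49 and 12.31 at 0 h (log2 -0.12, 95% interval -0.97 to 0.73). The interval of FOS 1 thus includes a fall and a rise of more than 1.5-fold. NR4A1 measured 10.51, 11.47 and 10.55 against 11.73, 11.01, 10.37 and 11.71 (log2 -0.36, 95% interval -1.33 to 0.61). EGR1 1 measured 12.97, 12.92 and 12.73 against 12.69, 11.97, 11.47 and 12.75, a pattern of closely placed 6 h arrays over a wide control range (log2 0.65 ± 0.38, adjusted p = 0.33). In FOS 1, EGR1 1 and NR4A1 the lowest control was replicate 3.

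At 18 h ATF3 and BTG1 were still up regulated, and 1 probe set of JUN passed the test. ATF3 stood 13.4-fold and BTG1 2.35-fold above 0 h, and JUN 3 2.07-fold. The 18 h arrays of SRF and ZFP36 overlapped the controls, and NR4A1 had its lowest mean of the 4 times. FOSL1, JUNB and 2 further JUN probe sets lay above all controls without being called.

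Of 16 probe sets 3 were called higher at 18 h, against 5.71% of all, and 0 lower, against 6.63%. The groups did not overlap, with 18 h higher, in 7 of 16, against 11.6% of all probe sets. The median log2 difference was 0.38 (all probe sets, -0.02).

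BTG1 measured 13.96, 13.69 and 13.81 at 18 h, each above the highest control of 13.26 (log2 1.23 ± 0.25, adjusted p = 0.00933). Its call at 18 h was kept under all 20 alternatives. ATF3 measured 11.10, 10.43 and 11.51, which lay at least 1 log2 unit above every control (log2 3.74 ± 1.07, adjusted p = 0.0425). As at 6 h, the ATF3 call was lost without control replicate 1, 2 or 4 or without any one 6 h or 18 h array (adjusted p = 0.0516 to 0.126) and with trend and robust moderation (0.0637), and without control replicate 3 the difference was 4.43 (adjusted p = 0.0153).

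JUN 3 measured 7.76, 7.57 and 7.44 against 6.33 to 6.85 at 0 h (log2 1.05 ± 0.26, adjusted p = 0.0236). The call of JUN 3 was lost without control replicate 1 or 4 or 18 h replicate 1 or 2 (adjusted p = 0.0698, 0.0695, 0.0973 and 0.0651). The probe sets of JUN thus did not pass the test together. JUN 1 and JUN 2 had differences of 0.75 and 1.07 (adjusted p = 0.145 and 0.143), JUN 4 of 0.50 (0.615) and JUN 5 of 0.09 (0.735). JUN 5, the dimmest, lay between 5.43 and 5.89 on all arrays and differed from 0 h by -0.03, 0.07 and 0.09 at the 3 times.

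With control replicates 1 and 4 averaged, BTG1 was the member called at 18 h, with JUN 3 at an adjusted p of 0.0695 and ATF3 at 0.113. With only the 0 h and 18 h arrays in the fit, 7 of 16 were called. The summed macrophage and monocyte marker level lay between 12.96 and 13.97 at 18 h, and 4 of 9 of these markers were called higher (CD68, CD14, TYROBP and CD86, with 1 of 9 at 6 h). The summed luteal steroidogenic level lay between 16.7 and 16.96 at 18 h against 17.33 to 17.52 at 0 h, with 5 of 10 genes called lower. Over all probe sets 5.71% were called higher and 6.63% lower at 18 h. Of the endothelial markers 3 of 9 were called higher and 1 lower, and of the fibroblast markers 3 of 8 higher. Of the lymphocyte, neutrophil and erythrocyte markers 0 of 9, 0 of 4 and 0 of 6 were called. The part of any of these in the 18 h values was not tested.

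**Figure D4:**
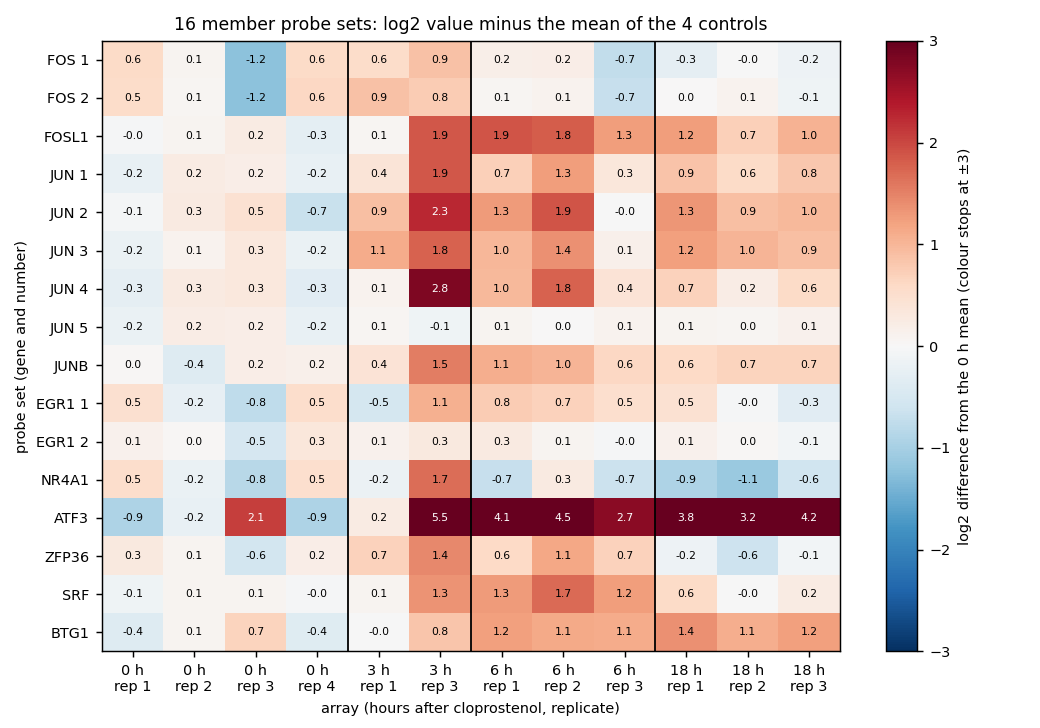
Log2 value minus the mean of the 4 controls for the 16 member probe sets (vertical axis) on the 12 arrays (horizontal axis, by hours after cloprostenol and replicate), printed in each cell and coloured from blue (lower) to red (higher), with the colour stopping at 3 on either side. The ATF3 cells reach 5.5 in 3 h replicate 3, and control replicate 3 is blue in FOS, EGR1, NR4A1 and ZFP36 and red in ATF3 and BTG1.

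Between the treated times 1 member passed the test. ZFP36 measured 9.76, 9.28 and 9.83 at 18 h, all below the 10.60 and 11.36 measured at 3 h, and its mean fell from 10.98 to 9.62 (log2 -1.36 ± 0.29, adjusted p = 0.0337, n = 3 and 2). Of 16 probe sets 1 was called lower at 18 h than at 3 h, against 1.11% of all, and 0 higher, against 1.72%. This call was lost without control replicate 2 or 4, without 3 h replicate 3 and without any one of the 18 h arrays. Without 3 h replicate 1, which leaves 1 array at 3 h, JUN 4, NR4A1, ZFP36 and SRF differed by log2 -2.3, -2.55, -1.74 and -1.08. With both 3 h arrays these differences of 18 h from 3 h were -0.95, -1.61, -1.36 and -0.45.

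Of 16 probe sets 5 were lower on all 18 h arrays than on both 3 h arrays, and 1 (BTG1) was higher. Besides ZFP36 the 5 were NR4A1, FOS 1 (log2 -0.86), FOS 2 (-0.84) and EGR1 2 (-0.19), none of them called. NR4A1 measured 10.29, 10.09 and 10.62 at 18 h against 11.02 and 12.88 at 3 h (log2 -1.61 ± 0.53, adjusted p = 0.144). FOS 1 and FOS 2 were also lower on all 6 h arrays than on both 3 h arrays (-0.83 and -1.01, not called), and BTG1 was again higher. ZFP36, SRF, FOSL1 and EGR1 1 (4 of 16 probe sets) were each lower on all 3 arrays at 18 h than on all 3 at 6 h. None was higher on all 3. The shares of all probe sets that separated in these ways were not counted. FOSL1 and EGR1 1 differed by log2 -0.65 ± 0.36 and -0.62 ± 0.41 (adjusted p = 0.563 and 0.652). SRF measured 7.95, 7.35 and 7.60 at 18 h against 8.65, 9.06 and 8.61 at 6 h (log2 -1.14 ± 0.27), and ZFP36 differed by -1.11 ± 0.26, both with an adjusted p of 0.105.

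From 6 h to 18 h limma called 0 of 16 members, against 0.258% of all probe sets higher and 0.192% lower. An unadjusted p under 0.05 was found in 2 of 16 (ZFP36 and SRF), against 11.3% of all probe sets. From 3 h to 6 h limma called 0 of 16, against 0.183% higher and 0.0541% lower. Here 3 of 16 had an unadjusted p under 0.05, against 12.6% of all probe sets. They were FOS 2 (log2 -1.01), SRF (0.69) and BTG1 (0.74). Without 3 h replicate 3, which leaves 1 array at 3 h, FOSL1 and SRF differed by 1.59 and 1.32 from 3 h to 6 h. With both 3 h arrays each of the pair differed by 0.69.

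In the order of the 4 time means, ATF3, BTG1, FOSL1, SRF, JUNB, JUN 1 to JUN 4, EGR1 1 and EGR1 2 were lowest at 0 h. Both EGR1 probe sets were only 0.03 higher at 18 h than at 0 h. The means of ATF3 were 7.27 ± 1.42 (SD, n = 4) at 0 h, 10.15 ± 3.72 (n = 2) at 3 h, 11.04 ± 0.95 (n = 3) at 6 h and 11.01 ± 0.55 (n = 3) at 18 h, and those of the 3 treated times did not differ beyond their spread. BTG1 ran from 12.59 ± 0.50 through 13 ± 0.61 to 13.74 ± 0.06 and 13.82 ± 0.14, with the 6 h and 18 h means 0.08 apart. SRF was highest at 6 h (8.77 ± 0.24), with 8.08 ± 0.90 at 3 h, 7.63 ± 0.30 at 18 h and 7.37 ± 0.11 at 0 h. For JUN 1, JUNB, ZFP36, FOS 1 and NR4A1 the highest mean was at 3 h, where the 2 animals differed by 0.76 to 1.86 in all of these but FOS 1.

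The genes whose values were most like each member over the 12 arrays are given as a description, since arrays of 1 time share their treatment. The search covered 998 named genes with an SD of at least 0.5. For ATF3 these were PIM1, a serine and threonine kinase (r = 0.964), NDRG1 (0.964) and SH3RF1 (0.960). For FOSL1 they were NRG1, a ligand of the ERBB receptors (0.987), SLC20A1 (0.977) and STX6 (0.975), and for SRF they were CTR9 (0.969), ABL1 (0.964) and CDKN1A, an inhibitor of cyclin-dependent kinases (0.963). For BTG1 they were ITGAV, GLUL and VMP1 (0.973 to 0.977), for JUNB RHOB, PPP1R15A and PLK3 (0.941 to 0.943), and for JUN TUFT1, TRIB1 and SH3RF1 (0.936 to 0.958).

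FOS and NR4A1 followed another course, in which IER2, itself an immediate early gene, was near to both (r = 0.82 and 0.938). FOS was further most like APOLD1 (0.85) and GPC3 (0.79), and NR4A1 was most like TOB1 (0.901) and ACOX2 (0.853) after IER2. EGR1 lay closest to SPRY2, an inhibitor of growth factor signalling (0.902), ERRFI1 (0.794) and TIMM8A (0.777), and ZFP36 to TIMM8A (0.889), FAM83D (0.886) and NUFIP1 (0.868). Among the members themselves, r was 0.92 between ATF3 and FOSL1, 0.91 between ATF3 and BTG1, 0.73 between FOS and NR4A1, and -0.16 between FOS and ATF3.

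Related genes were then described in 6 lists, without the members, with 1 probe set per gene. Some genes are in more than 1 list. For comparison with the counts below, 5.26% of all probe sets were called higher and 6.08% lower at 6 h. At 18 h the shares were 5.71% and 6.63%. Other immediate early genes had the highest median difference of the 6 lists at 3 h (0.70) and shared the highest at 6 h (1.19). Of 25 measured, 0 were called at 3 h, 7 higher and 0 lower at 6 h, and 5 higher and 0 lower at 18 h (median 0.84). The medians of all probe sets were -0.01, -0.04 and -0.02. The median of 1.19 was shared with the list of transcripts with AU-rich elements, and PTGS2, IER3 and MYC are in both lists. PTGS2 gave the median of both at 6 h. MYC was called in both at 6 h and IER3 in both at 18 h. GEM, a small GTPase, rose 6.29-fold at 6 h and 6.16-fold at 18 h (adjusted p = 0.00996 and 0.00792), BHLHE40, a transcriptional repressor, rose 4.19-fold and 5.05-fold (0.00698 and 0.00266), and CITED2, a transcriptional coregulator, rose 1.93-fold and 2.15-fold (0.0145 and 0.00541).

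Partners of the members in AP-1 and ATF dimers moved less in common. Of 18 measured, 4 were called higher and 1 lower at 6 h, and 2 higher and 1 lower at 18 h, with medians of 0.16, 0 and 0.08 at the 3 times. ATF4, called at 6 h, and DDIT3 are also in the list of the ATF3 and ATF4 stress response. ATF4, the activator of the amino acid and unfolded protein response, rose 2.19-fold at 6 h (adjusted p = 0.00794) and ATF1 rose 1.35-fold, while ATF5 fell 1.36-fold. At 18 h BATF, a dimer partner of Jun proteins, rose 2.27-fold (adjusted p = 0.00784) and CREB3 1.27-fold, while CEBPB fell 1.90-fold (0.048).

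Of 17 SRF cofactors and targets, 6 were called higher at 6 h and 7 at 18 h, with 0 lower at either time and medians of 0.15, 0.46 and 0.55. At 6 h FHL2, an SRF cofactor (3.59-fold, adjusted p = 0.00884), VCL, which encodes the adhesion protein vinculin (3.13-fold, 0.0173), and the cytoskeletal actin gene ACTG1 (1.36-fold) rose. At 18 h ANKRD1, a nuclear cofactor also regulated by mechanical load (17.1-fold, 0.0061), and the actin-binding genes TAGLN (4.81-fold, 0.00534) and TPM2 (2.11-fold, 0.0133) rose. This list shares contractile genes such as TAGLN with the smooth muscle and mural marker list, of which 3 of 10 were called higher at both 6 h and 18 h and whose summed level was 13.79 to 14.62 at 0 h, 14.49 to 14.76 at 6 h and 14.42 to 15.09 at 18 h. The part of these cells in the change was not tested.

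Genes of the ATF3 and ATF4 stress response moved in both directions. Of 15 measured, 4 were called higher and 2 lower at 6 h, and 1 higher and 3 lower at 18 h (medians 0.14, 0.31 and 0.18). HSPA5, the main chaperone of the endoplasmic reticulum, rose 1.87-fold at 6 h and 1.45-fold at 18 h (adjusted p = 0.00293 and 0.0224). PSAT1, an enzyme of serine synthesis and an ATF4 target, fell 2.28-fold and 2.17-fold (0.0112 and 0.0119), and DDIT4, an inhibitor of mTOR signalling, fell 1.83-fold at 18 h (0.0229).

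The list of the ZFP36 and BTG families and the CCR4-NOT deadenylase they recruit also held PAN2, PRMT1 and ELAVL1. Of its 14 genes measured, 4 were called higher and 3 lower at 6 h, and 2 higher and 3 lower at 18 h. PRMT1 and ELAVL1 were among those called higher at 6 h. The medians were near 0 (0.07, 0.05 and 0.03). BTG3 rose 2.15-fold at 6 h and 2.64-fold at 18 h (adjusted p = 0.00557 and 0.00108), beside BTG1. Among CCR4-NOT subunits, CNOT10 fell 3.24-fold and 3.04-fold (0.00406 and 0.00335), CNOT2 fell 1.39-fold at 6 h, and CNOT6, a catalytic subunit, rose 1.56-fold at 18 h.

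Transcripts with AU-rich elements, which ZFP36 is known to bind as a class, were higher in the median at all 3 times (0.38, 1.19 and 0.98). Of 17 measured, 0 were called at 3 h, 4 higher and 0 lower at 6 h, and 4 higher and 1 lower at 18 h. PLAUR, the urokinase receptor, rose 7.70-fold and 7.73-fold at 6 h and 18 h (adjusted p = 0.00147 and 0.000791), and its ligand PLAU rose 3.77-fold and 4.25-fold. The chemokine CXCL8 rose 3.30-fold at 6 h (0.0326) and IER3 rose 2.72-fold at 18 h (0.0112).

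**Figure D5:**
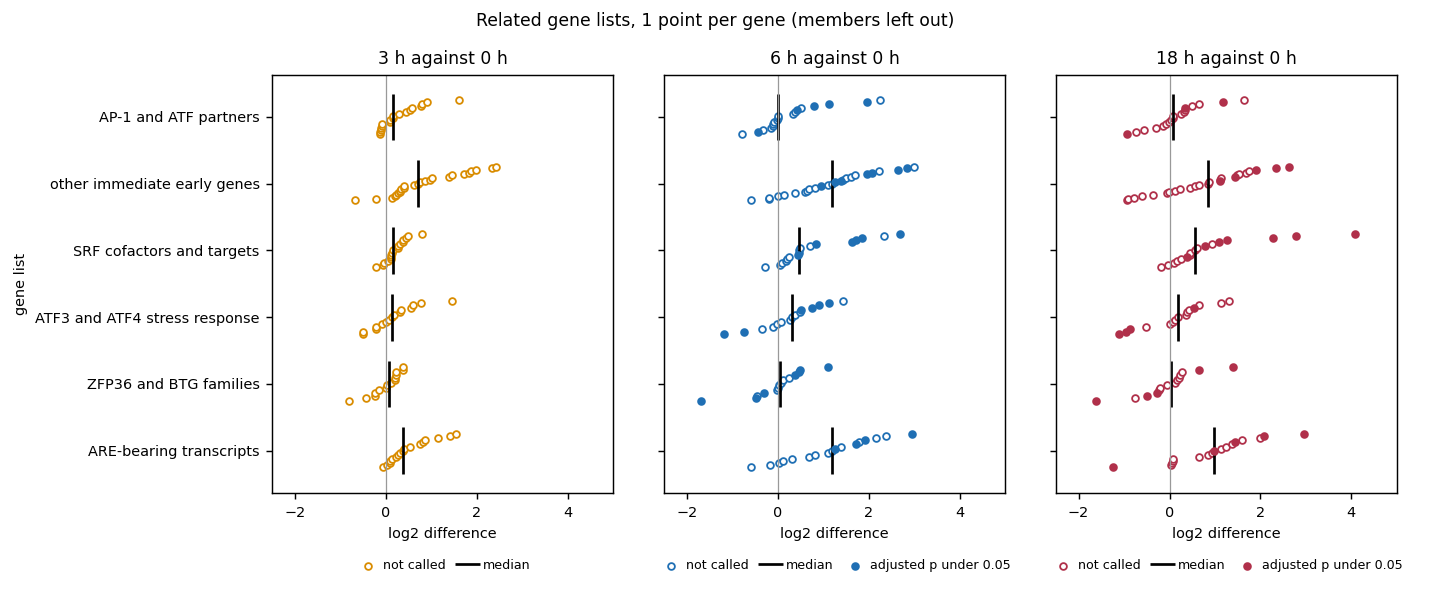
Log2 difference from 0 h (horizontal axes) of the genes of 6 related lists (vertical axis) at 3, 6 and 18 h, 1 point per gene, with members left out. Filled points have an adjusted p under 0.05 and black lines are list medians. No point is filled at 3 h, and the medians of the other immediate early genes are 0.70, 1.19 and 0.84.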

How the data were processed

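Whole CL of 12 buffalo cows was measured on 1-colour cattle arrays. Per the labels, the deposited values are log2 values that the authors made by RMA, a background correction, between-array normalization and probe set summary in one. Its version, the chip definition and which arrays were normalized jointly were not given in the sources used here. RMA compresses differences at low and near-saturated signal. The 112 control probe sets of 24128 were left out. Symbols came from the platform annotation (13292 probe sets with 1 symbol, 86 with several, 10638 with none). Of the 10 member symbols 9 were also found in the buffalo RefSeq gene table NDDB_SH_1, and ZFP36 was not.

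Means of the 4 times were fitted to all 12 arrays in R 4.3.3 with limma 3.58.1 (lmFit, contrasts.fit, eBayes at default settings, two-sided, adjusted by Benjamini-Hochberg within a comparison). Values are log2 differences ± SE, and group levels means ± SD. The steps were tested on simulated data. The number of arrays limits the precision. The members, lists and tests were chosen with earlier results of these data known. All member probe sets are named. For each member (brightest probe set) the 3 genes with the highest Pearson r were named, and of each related list the 3 with the lowest p at 6 h and at 18 h. Marker lists held luteal, endothelial, smooth muscle, fibroblast, macrophage, lymphocyte, neutrophil and erythrocyte genes. The 20 alternatives were fits without the 40% dimmest probe sets, repeated quantile normalization, median centring, trend and robust moderation, the replicate number as a block, only the 2 times compared, 1 probe set per gene, control replicates 1 and 4 averaged, and each of the 12 arrays left out.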

Additional observations from a re-analysis of the deposited data

Results flagged for a closer look

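ZFP36 was singled out because its change between 2 treated times passed the test of that difference itself. Its mean at 18 h was 1.36 lower than at 3 h (log2 -1.36, 9.62 against 10.98, limma adjusted p = 0.0337), with all 3 arrays at 18 h below both arrays at 3 h. No member probe set had a control array beyond Dixon's 95% critical value for 4 arrays. The groups at 3, 6 and 18 h are too small for that test.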

How the results depend on the processing

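Over 48 differences from 0 h and 20 alternatives, 826 of 939 values kept direction and side of the threshold, 43 lost a call, 33 gained one and 37 changed sign, none of the last being called. The calls of SRF at 6 h and BTG1 at 18 h were kept under all 20. Counts of called members outside 1.5 times the reported one were as follows, and the cause was not tested. At 6 h against 0 h (5 called) 1 was called with the replicate block and 3 with control replicates 1 and 4 averaged. Over all probe sets 2724 were called in the reported fit, and 870 and 1376 in these. At 18 h against 0 h (3 called) there was 1 with the replicate block, 1 with those controls averaged and 7 with only the 2 times compared. The totals over all probe sets were 2964 as reported, then 1480, 1856 and 3355. At 18 h against 3 h (1 called) there were 0 with the replicate block and 0 with only the 2 times compared. The totals there were 681 as reported, then 227 and 154. In each of these fits the total moved in the same direction as the member count. With 1 array left out in turn, counts ran from 0 to 8 at 3 h, 1 to 9 at 6 h and 1 to 6 at 18 h against 0 h, 0 to 2 at 6 h against 3 h, 0 to 4 at 18 h against 3 h and 0 to 1 at 18 h against 6 h. The 8 came without 3 h replicate 1. The 9 and the 6 came without either 3 h array, since a lone 3 h array adds no spread to the fit.

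Whether replicate numbers pair the animals is not given in the labels, and correlations between arrays cannot decide it. The 2 arrays at 3 h deviate from their mean by equal and opposite amounts. Their correlations with any other array thus differ only in sign. Deviations from the group mean correlated between -0.26 and 0.191 in 15 same-numbered pairs (3 over 0.1) and between -0.293 and 0.26 in 38 others (9 over 0.1). With the replicate block FOSL1 (adjusted p = 0.0681), JUNB (0.0926), ATF3 (0.116) and BTG1 (0.0552) were not called at 6 h, nor JUN 3 (0.102) and ATF3 (0.109) at 18 h. With it the reversed differences were FOS 1 0.07, FOS 2 0.03 and JUN 5 -0.01 at 6 h, and FOS 1 0.05 and FOS 2 0.20 at 18 h. With controls 1 and 4 averaged they were FOS 1 0.07, FOS 2 0.01 and JUN 5 -0.01 at 6 h, and FOS 1 0.04 and FOS 2 0.19 at 18 h. Repeated quantile normalization put FOS 2 at 0.00 at 18 h.

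With 1 array left out, log2 differences that changed sign ran at 3 h from -0.13 to 0.07 for JUN 5, -0.53 to 1.08 for EGR1 1, -0.19 to 1.67 for NR4A1 and -0.02 to 0.84 for BTG1. At 6 h they ran from -0.53 to 0.18 for FOS 1, -0.59 to 0.07 for FOS 2, -0.01 to 0.14 for JUN 5 and -0.06 to 0.22 for EGR1 2. At 18 h they ran from -0.56 to 0.05 for FOS 1, -0.42 to 0.20 for FOS 2, -0.22 to 0.21 for EGR1 1 and -0.14 to 0.14 for EGR1 2. The dim filter left out JUN 5, which gave it no value there.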
